A study of Liolophura hirtosa with 16 samples.

Results

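Of 493 chiton sequences represented on an array, 5 were about as bright in radula tissue with immature teeth as in tissue with iron-depositing teeth and dimmer in tissue with calcium-depositing teeth. They were chosen by measured values: the immature and the iron mean both had to lie 0.4 or more above the calcium mean on the log2 scale and to differ from each other by less than 0.5. A sequence was to be dropped if foot muscle lay 0.5 or more above all sections, or if all sections lay 0.5 or more above foot muscle and differed by less than 1. The 5 are the contigs Contig[0018] and Contig[0192] and the clones PlateC-D5-5-SMART, PlateD-H2-5-SMART and PlateC-A3-5-SMART. The files pair none of them with a gene name, so that no function is given here, and they are taken up in the order of the size of their difference.

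The animal is the chiton Acanthopleura hirtosa, which the labels list as Liolophura hirtosa. RNA of wild adults was studied in 4 tissues, namely immature, iron and calcium radula sac and foot muscle, the last being a tissue that bears no teeth. The design text gives 12 animals and pools of 3 animals per array, with 4 arrays for each tissue and 16 in all. Each array therefore stands for a pool, and differences between single animals cannot be seen. The labels list no treatment. Because no gene names are given, the labelled tissues could not be checked against marker genes. The median spot intensity of an array lay between 200.1 and 426 scanner units, no background was measured, and the number of arrays limits the precision of every value.

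A chiton radula is a ribbon of tooth rows produced continuously at one end, so that its length holds successive stages of tooth formation. Teeth begin as a scaffold rich in chitin. Epithelial cells around them then deliver iron, which forms magnetite in the working face of the tooth, and in this genus the core is later filled with a calcium mineral. A transcript that is high before and during iron delivery and lower in the calcium section is thus high over the earlier stages of the ribbon. In pooled tissue, fewer cells of a type and less RNA per cell cannot be told apart.

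Each sequence was read by 1 to 5 short probes, 19 in all for the 5. The following probes are shown because the results turn on them. They comprise the last probe along Contig[0018], the probe of PlateC-D5-5-SMART that differed most between calcium and iron, the probes of PlateD-H2-5-SMART that differed most and least between these tissues, the single probe of PlateC-A3-5-SMART, and 3 probes of Contig[0192] that disagreed. Positions are bases within the deposited sequence and not places in a genome. Capitals mark the bases that the last 2 probes share.
Contig[0018], bases 733 to 767: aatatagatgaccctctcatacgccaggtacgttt
PlateC-D5-5-SMART, bases 609 to 643: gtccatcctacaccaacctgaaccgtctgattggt
PlateD-H2-5-SMART, bases 353 to 387: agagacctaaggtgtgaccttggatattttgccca
PlateD-H2-5-SMART, bases 321 to 355: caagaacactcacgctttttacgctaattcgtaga
PlateC-A3-5-SMART, bases 6 to 45: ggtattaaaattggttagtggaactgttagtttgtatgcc
Contig[0192], bases 62 to 96: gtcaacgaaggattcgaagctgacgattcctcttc
Contig[0192], bases 409 to 443: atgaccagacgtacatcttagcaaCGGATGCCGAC
Contig[0192], bases 433 to 467: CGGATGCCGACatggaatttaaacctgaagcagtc

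The deposited value table and scanner files disagree on 4 of the arrays, and every immature or calcium value depends on which is followed. The authors' value table has 1 column per sample. For immature replicates 2 and 4 and calcium replicates 2 and 4, the values follow the scanner file listed under the other tissue with the same replicate number, up to one factor, whereas the other 12 columns fit the files listed with them. Nothing in the labels decides between them. The selection followed the value table, and so do the values below unless another source is named. Over the 493 sequences, which are not independent replicates, arrays of one tissue then correlated at a Pearson r of 0.975 to 0.996. Arrays of immature and calcium teeth correlated at 0.685 to 0.726. Results are repeated for the 12 arrays on which both sources match, with n = 2 for immature and calcium and n = 4 for iron and foot muscle, and for the scanner files as recorded.

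The levels below are log2 values of the intensity of a probe divided by the mean of its array, quantile-normalized between arrays and averaged over the probes of a sequence, and they are compared between tissues only, not between sequences. The immature, iron and calcium values chose the members, so their differences are a description. Counts of limma calls on them are given with the share called among all sequences, and they test nothing about the members. Differences are calcium minus the earlier section, with the standard error (SE) of the linear model fitted to all 493 sequences.

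Contig[0018] had the largest difference of the 5, and it was the one member far above foot muscle in every section. Its level in replicates 1 to 4 was 3.21, 3.67, 3.72 and 3.66 in immature arrays, 3.54, 3.92, 3.82 and 3.56 in iron arrays, and 2.21, 2.35, 2.28 and 2.35 in calcium arrays. Foot muscle arrays had -0.84, -0.81, -0.995 and -0.96. Immature and iron arrays overlapped, the 4 calcium arrays lay below all of them, and the 4 foot muscle arrays lay further below. The level in calcium teeth was 2.40-fold below that in immature teeth (log2 -1.26, SE 0.10) and 2.66-fold below that in iron teeth (log2 -1.41, SE 0.10). The calcium level was still 9.19-fold that of foot muscle (log2 3.20, SE 0.10), and the mean of immature and iron teeth was 23.2-fold that of foot muscle.

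PlateC-D5-5-SMART was lower in calcium teeth than in each of the other 3 tissues, foot muscle included. Its level was 1.76, 1.41, 1.49 and 1.51 in immature arrays, 1.998, 1.85, 1.57 and 1.70 in iron arrays, 1.06, 1.06, 0.74 and 0.79 in calcium arrays, and 1.76, 1.74, 1.68 and 1.60 in foot muscle arrays. All 4 calcium arrays lay below the other 12, among which the 3 tissues overlapped. The difference was log2 -0.63 (SE 0.10) for calcium minus immature teeth, a 1.55-fold lower level. Against iron teeth it was log2 -0.87 (SE 0.10), or 1.82-fold lower, and against foot muscle log2 -0.78 (SE 0.10).

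PlateD-H2-5-SMART was highest in immature teeth, intermediate in iron teeth and lowest in calcium teeth. Immature arrays had 0.15, 0.27, 0.32 and 0.17, iron arrays -0.08, -0.19, 0.02 and -0.20, calcium arrays -0.69, -0.69, -0.64 and -0.62, and foot muscle arrays -0.31, -0.54, -0.21 and -0.37. No tissue overlapped another, and the order was immature, iron, foot muscle, calcium. The gaps were narrow in places, as the lowest iron array lay 0.011 above the highest foot muscle array, and the highest calcium array 0.082 below the lowest foot muscle array. In calcium teeth it was 1.85-fold lower than in immature teeth (log2 -0.89, SE 0.066) and 1.46-fold lower than in iron teeth (log2 -0.55, SE 0.066).

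PlateC-A3-5-SMART, a clone of 122 bases with a single probe, had the widest spread among its calcium arrays. Its level was -0.61, -0.50, -0.41 and -0.47 in immature arrays, -0.52, -0.94, -0.58 and -0.68 in iron arrays, -1.27, -1.23, -0.73 and -1.34 in calcium arrays, and -1.60, -1.39, -1.17 and -1.55 in foot muscle arrays. Calcium lay below immature teeth in every array but overlapped iron teeth, because calcium replicate 3 was above iron replicate 2. Before quantile normalization these tissues did not overlap, with intensity over the array mean at 0.36 to 0.52 in calcium and 0.59 to 0.76 in iron arrays. Calcium and foot muscle overlapped as well. The difference was log2 -0.65 (SE 0.13) for calcium minus immature teeth and log2 -0.46 (SE 0.13) for calcium minus iron teeth.

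Contig[0192] gave low values throughout. Immature arrays had -1.36, -1.36, -1.31 and -1.53, iron arrays -1.18, -1.32, -1.18 and -1.20, calcium arrays -1.85, -1.88, -1.86 and -1.83, and foot muscle arrays -1.69, -1.74, -1.81 and -1.82. After quantile normalization, the calcium arrays lay below the other 12, by 0.011 for the nearest foot muscle array. The mean in calcium teeth stood at percentile 10.2 of all sequences in that tissue. Before normalization, intensity over the array mean was 0.39, 0.39, 0.19 and 0.22 in calcium arrays. These overlapped immature arrays (0.31 to 0.46) and foot muscle arrays (0.29 to 0.42). With the table as deposited, calcium minus immature teeth was log2 -0.31 and was not called. Without a background measurement, how differences between values this low relate to differences in RNA is not known. The measured difference was log2 -0.46 (SE 0.048) for calcium minus immature teeth and log2 -0.63 (SE 0.048) for calcium minus iron teeth.

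**Figure D1:**
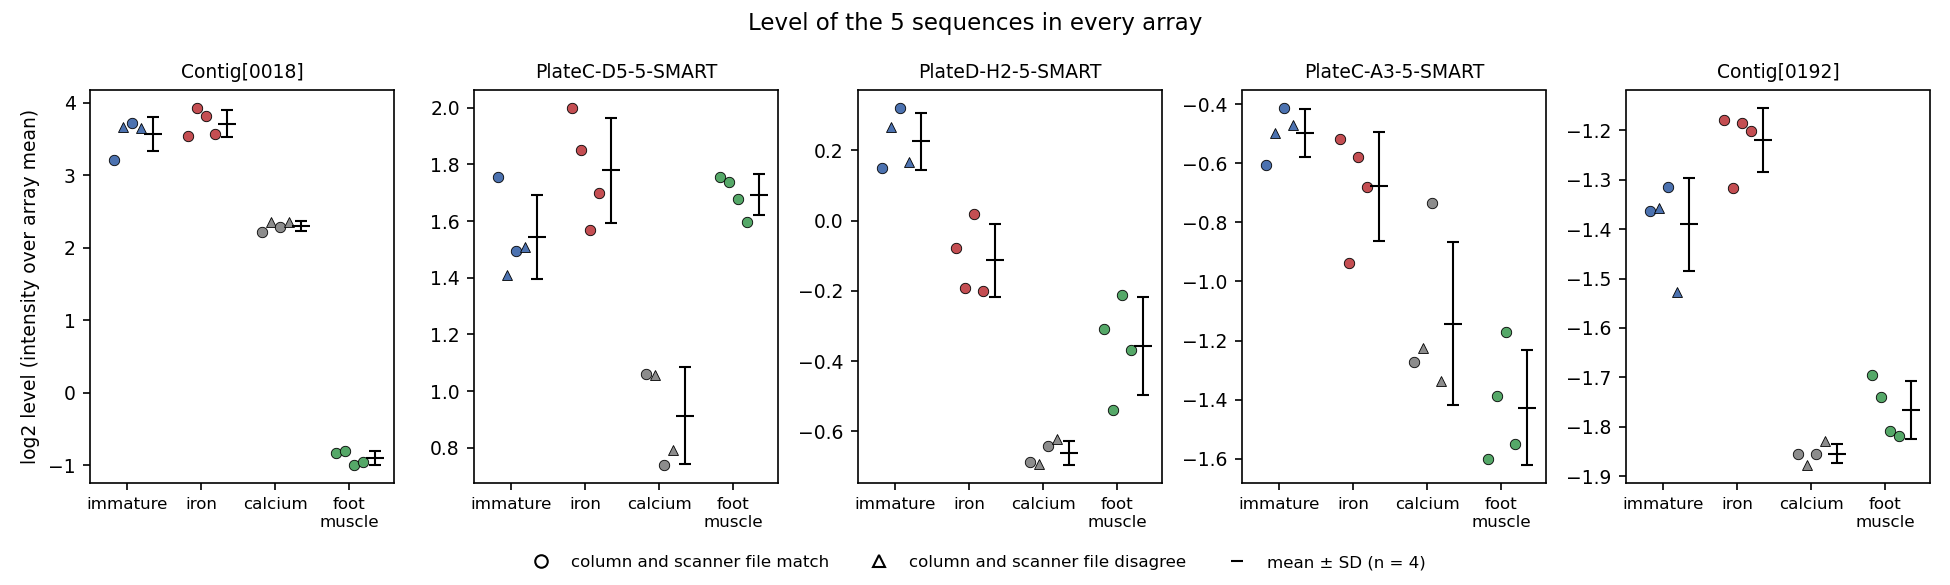
Level of the 5 sequences in every array, as log2 of intensity over the array mean after quantile normalization (vertical axis, its range set per sequence), by tissue (horizontal axis, replicates 1 to 4 from left to right within a tissue). Triangles are the 4 arrays whose value table column and scanner file disagree, and black bars are the mean ± SD of 4 arrays; calcium arrays lie below immature arrays for all 5 sequences and overlap iron arrays for PlateC-A3-5-SMART only.

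Counted over the members, the calcium arrays lay entirely below the immature arrays for 5 of 5 sequences, as they did for 13.6% of all sequences. They lay entirely below the iron arrays for 4 of 5, against 12.8% of all sequences. Limma, at an adjusted p under 0.05 over all 493 sequences, called 5 of 5 lower in calcium than in immature teeth and 5 of 5 lower than in iron teeth, where it called 13.8% and 14.0% of all sequences. It called 5 of 5 lower against both, as it did 6.29% of all sequences, and 4 of 5 had calcium arrays entirely below both, as did 6.09%. The selection used these contrasts, so these counts were largely fixed by it and are no test of the members. The counts of arrays also depend on quantile normalization. Before it, calcium and immature arrays overlapped for Contig[0192], while calcium and iron arrays did not overlap for PlateC-A3-5-SMART. The median difference of the 5 was log2 -0.65 for calcium minus immature teeth and -0.63 for calcium minus iron teeth, against 0.02 and 0.03 for all sequences.

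Differences within each replicate number largely follow from the selection and from the array order above, and they are no test of the members. How many of all sequences behave this way was not counted. Replicate numbers 2 and 4 hold the arrays on which the value table and the scanner files disagree. For calcium minus immature teeth, the 4 differences of Contig[0018] lay between -1.44 and -0.998 and those of PlateD-H2-5-SMART between -0.96 and -0.79. PlateC-A3-5-SMART came closest to no difference, at -0.32 against immature and -0.16 against iron teeth, both in replicate 3. After quantile normalization, all 5 members had 4 of 4 negative differences in both comparisons. Before it, Contig[0192] in replicate 2 went the other way, with intensity over the array mean at 0.387 in calcium and 0.351 in immature teeth. Whether a replicate number marks the same animals in each tissue is not stated in the sources used here.

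Holding between immature and iron teeth was part of the selection, and the members differed in how closely they held. Limma called PlateD-H2-5-SMART lower in iron than in immature teeth (log2 -0.34, SE 0.066) and Contig[0192] higher (log2 0.17, SE 0.048), 2 of 5 members, where it called 30.2% of all sequences in either direction. Immature and iron arrays did not overlap in 1 of 5 members, PlateD-H2-5-SMART, and in 32.0% of all sequences. With the replicate number as a block it also called PlateC-D5-5-SMART higher, 3 of 5 in all. The lower level of PlateD-H2-5-SMART was seen in 4 of 4 replicate numbers. Under median scaling and with the table as deposited, neither was called. The differences of the other members were log2 0.15 for Contig[0018], 0.24 for PlateC-D5-5-SMART and -0.18 for PlateC-A3-5-SMART. That of Contig[0018] changed sign with scaling and was -0.17 under cyclic loess, as did that of PlateC-D5-5-SMART, at -0.01 under cyclic loess.

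**Figure D2:**
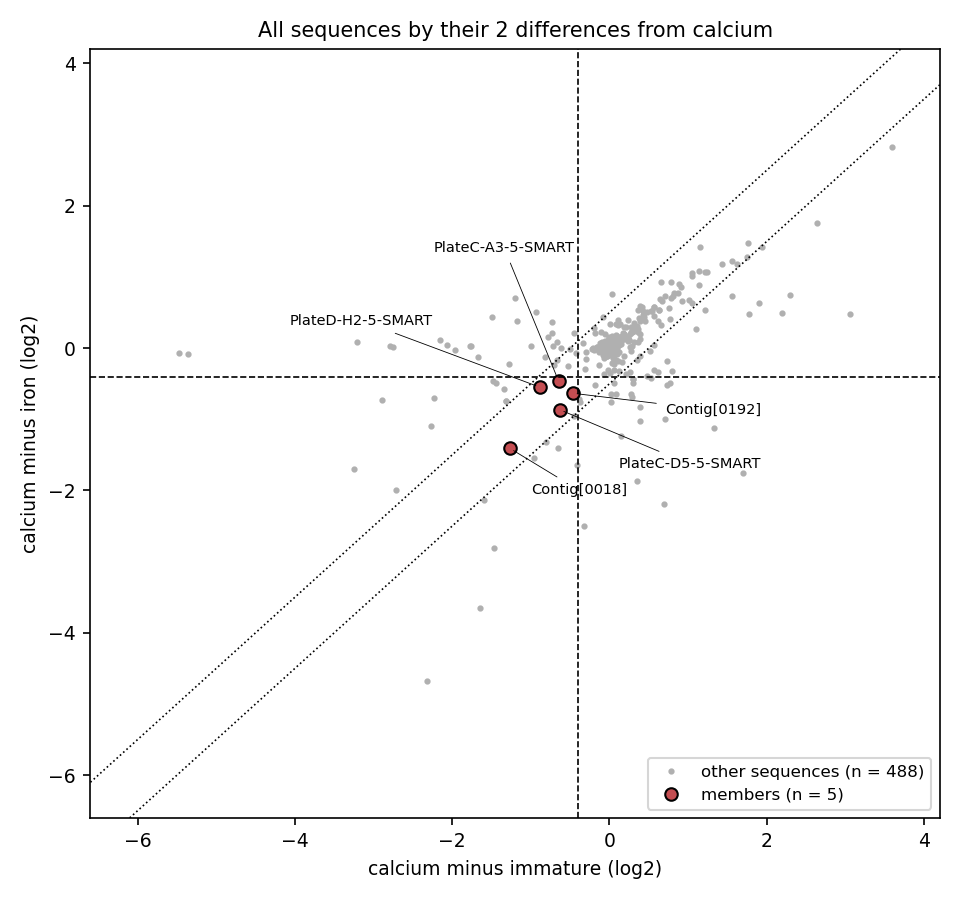
Difference between calcium and immature teeth (horizontal axis) against difference between calcium and iron teeth (vertical axis), both in log2, with 1 point per sequence (5 members in red, 488 others in grey). Dashed lines mark the limit of -0.4 and dotted lines the limit of 0.5 between immature and iron teeth; the members lie in the narrow corner these lines enclose, from -0.46 to -1.26 on the horizontal axis.

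Most sequences that were lower in calcium teeth than in both earlier sections did not hold between the earlier ones. Of 493 sequences, 54 had an immature mean and 48 an iron mean at least 0.4 above calcium, and 24 had both. Among these 24, iron was higher than immature by 0.5 or more in 9, immature was higher than iron by 0.5 or more in 10, and the 5 members made up the rest. The foot muscle clauses dropped none.

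Several sequences lay close to the limits. Just inside the limit of 0.4, the smaller of the differences from calcium was 0.46 for Contig[0192], 0.46 for PlateC-A3-5-SMART and 0.55 for PlateD-H2-5-SMART. Just outside, it was 0.39 for Plate-A-G3-5-SMART, 0.37 for Contig[0042] and 0.30 for plateD-E12-5SMART-primer. On the limit of 0.5 between immature and iron teeth, the members nearest to it were PlateD-H2-5-SMART at 0.34, PlateC-D5-5-SMART at 0.24 and PlateC-A3-5-SMART at 0.18. The nearest sequences beyond it were plateD-C7-5SMART-primer at 0.51, Contig[0249] at 0.51 and Contig[0002] at 0.54. All 3 were higher in iron than in immature teeth. Contig[0249], for example, averaged 0.39 in immature, 0.90 in iron, -0.43 in calcium and 0.15 in foot muscle arrays. Contig[0042] averaged -0.29 in immature, 0.10 in iron, -0.66 in calcium and -0.31 in foot muscle arrays, so that its immature mean fell just short.

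The probes of a member, which read the same sequence on the same arrays and are no replicates, did not all carry its pattern. All 19 were lower on average in calcium than in both earlier sections. Of them, 14 differed by 0.4 or more from both, and 12 also held within 0.5 between immature and iron teeth. Because their sequences were selected for a low calcium mean, these counts describe the selection and are no test of it.

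On Contig[0018] and PlateC-D5-5-SMART, every probe met the limits by itself. The 4 probes of Contig[0018] differed by log2 -1.36 to -1.15 for calcium minus immature and by -1.60 to -0.96 for calcium minus iron teeth. Those of PlateC-D5-5-SMART differed by -0.72 to -0.46 and by -0.99 to -0.64. On PlateD-H2-5-SMART, 3 of 5 probes met the limits. Its other 2 probes, at bases 153 to 187 and 321 to 355, differed by only -0.25 and -0.18 between calcium and iron teeth, against -0.91 at bases 353 to 387.

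On Contig[0192], no single probe met the limits, and its place among the members came from averaging probes with different patterns. At bases 409 to 443, immature teeth had -0.999 ± 0.13, iron teeth -0.21 ± 0.18 and calcium teeth -1.68 ± 0.07 (SD, n = 4 each). The overlapping probe at bases 433 to 467 had -1.19 ± 0.17 in immature arrays, -0.56 ± 0.16 in iron arrays and -1.76 ± 0.05 in calcium arrays (SD, n = 4 each). Both were highest in iron teeth and share 11 bases, shown in capitals above. At bases 21 to 55 the order differed, with -1.33 ± 0.15 in immature arrays, -1.70 ± 0.08 in iron arrays and -1.79 ± 0.04 in calcium arrays (SD, n = 4 each). At bases 62 to 96, calcium and iron teeth differed by -0.02 only, with immature teeth above both. With the median over probes in place of the mean, the difference between calcium and iron teeth was -0.17 and Contig[0192] did not meet the rule.

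**Figure D3:**
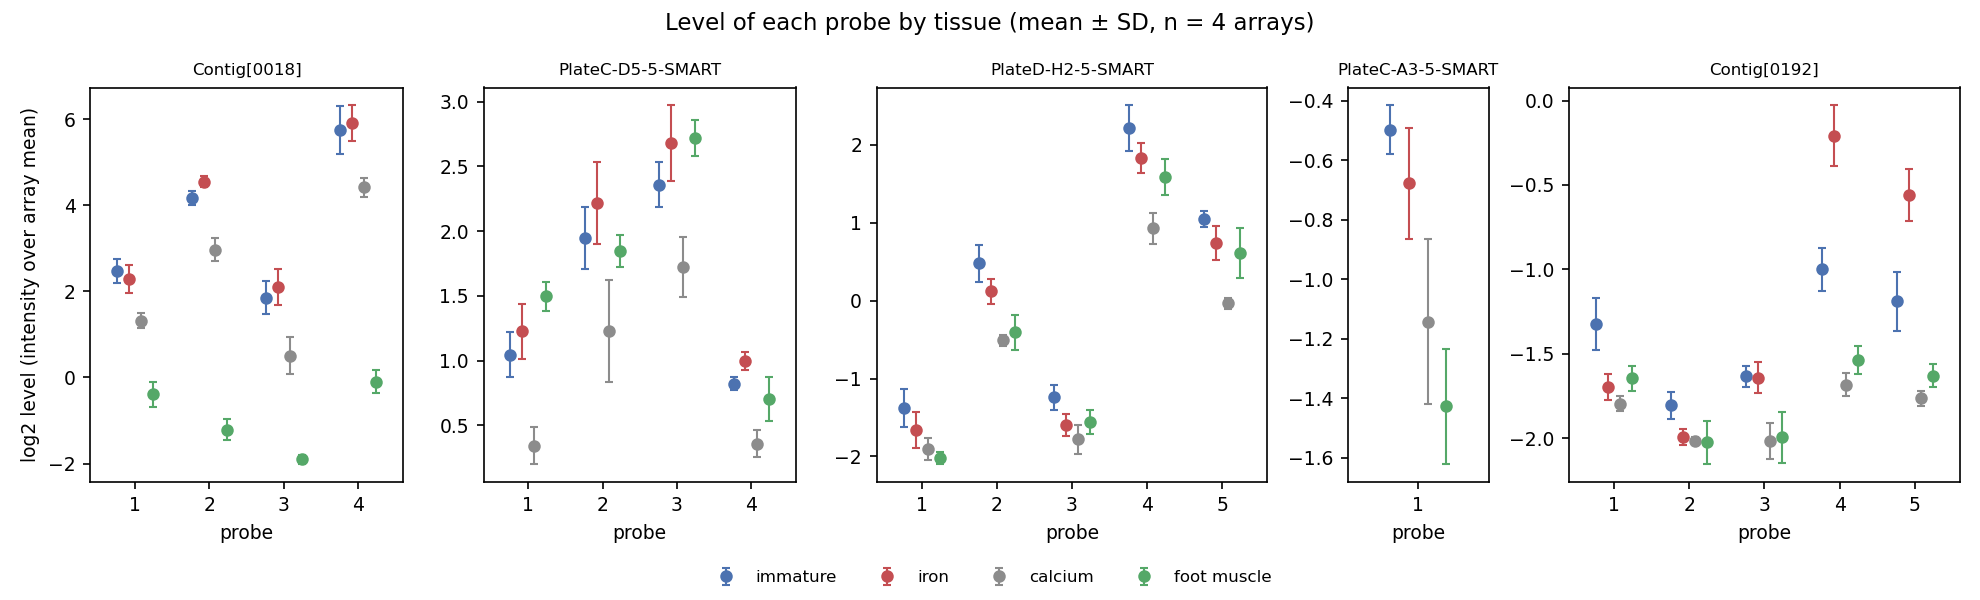
Level of each of the 19 probes by tissue (mean ± SD of 4 arrays, log2 of intensity over the array mean), with probes numbered along their sequence and a vertical range set per sequence. Calcium lies below immature and iron teeth on every probe, while on Contig[0192] the last 2 probes are highest in iron teeth and the first 2 in immature teeth.

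One probe of the 19 shares a run of letters with a probe of another sequence on the array, among runs of 15 bases or more on either strand. The probe of Contig[0018] at bases 204 to 238 and that of Contig[0110] at bases 302 to 336 have 20 bases in common, in capitals here.
Contig[0018], bases 204 to 238: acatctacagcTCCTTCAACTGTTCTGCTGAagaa
Contig[0110], bases 302 to 336: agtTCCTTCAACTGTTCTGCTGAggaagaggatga
The Contig[0110] probe had 0.64 ± 0.29 in immature, -0.73 ± 0.20 in iron, -0.46 ± 0.05 in calcium and -0.71 ± 0.16 in foot muscle arrays (SD, n = 4 each). The Contig[0018] probe had 2.47 ± 0.28, 2.28 ± 0.32, 1.32 ± 0.18 and -0.39 ± 0.30 in the same order (SD, n = 4 each). Iron teeth were thus low on the probe of Contig[0110] and high on that of Contig[0018]. Whether either RNA binds the other probe was not tested, and the other 3 probes of Contig[0018] share no such run.

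Foot muscle set the members apart from each other. Limma called 4 of 5 members higher in the mean of immature and iron teeth than in foot muscle, where it called 19.9% of all sequences. The count was 3 under 75th percentile scaling and with the table as deposited, and 5 under median and cyclic loess scaling. After quantile normalization, all 8 arrays of these sections lay above all 4 foot muscle arrays in those 4 members, as in 10.1% of all sequences. The difference was log2 4.54 for Contig[0018] (SE 0.091), 0.84 for PlateC-A3-5-SMART (SE 0.11), 0.46 for Contig[0192] (SE 0.042), which was 0.15 under 75th percentile scaling and 0.17 as deposited, and 0.41 for PlateD-H2-5-SMART (SE 0.057). PlateC-D5-5-SMART differed by -0.03 (SE 0.085), which turned to between 0.20 and 0.47 under the other 4 scalings. Before quantile normalization, the immature and foot muscle arrays of Contig[0192] overlapped. Their intensity over the array mean was 0.31 to 0.46 in immature and 0.29 to 0.42 in foot muscle arrays.

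In calcium teeth, 3 of 5 members lay entirely below foot muscle, namely PlateC-D5-5-SMART, PlateD-H2-5-SMART and Contig[0192], as did 23.1% of all sequences. For these 3, the calcium arrays were below the other 12 arrays, which held for 8 of 493 sequences (1.62%). Before quantile normalization, the calcium arrays of Contig[0192] overlapped its foot muscle and immature arrays. Limma called 2 of 5 lower in calcium teeth than in foot muscle, PlateC-D5-5-SMART and PlateD-H2-5-SMART (log2 -0.30, SE 0.066), and 1 of 5 higher, Contig[0018]. It called 30.4% of all sequences lower and 12.8% higher. The signs held under the other 4 scalings, with PlateD-H2-5-SMART between -0.28 and -0.08. Foot muscle values took part in the selection only through the clauses that dropped none, whereas the section values they are set against chose the members.

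The sequences that stood out most in foot muscle were for the most part higher in calcium teeth than in the earlier sections. For the 10 sequences that foot muscle exceeded the average of the 3 sections by most, the median level was -0.90 in immature, -0.48 in iron, 0.49 in calcium and 2.24 in foot muscle arrays. Calcium teeth were above immature teeth for 9 of the 10, above iron teeth for 9, and above both for 8. The median difference of the 10 was log2 1.03 for calcium minus immature and 0.72 for calcium minus iron teeth. For all sequences it was 0.02 and 0.03. The part of these 10 sequences in the members' difference was not tested.

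On the 12 arrays for which the value table and the scanner files match, 4 of the 5 members still met the rule. Contig[0018] then had means of 3.45 in immature, 3.70 in iron and 2.23 in calcium arrays, that is, differences of -1.22 and -1.47. PlateC-D5-5-SMART differed by -0.72 for calcium minus immature and -0.87 for calcium minus iron teeth, PlateD-H2-5-SMART by -0.88 and -0.55, and Contig[0192] by -0.49 and -0.62. PlateC-A3-5-SMART differed by -0.48 against immature teeth, within the rule, and by -0.32 against iron teeth, short of the limit of 0.4, and limma called neither of its differences. The 3 sequences that met the rule there and not over all 16 arrays were Contig[0249], Plate-A-G3-5-SMART and plateD-C7-5SMART-primer.

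With the scanner files as recorded, 0 sequences met the rule. The differences of the 5 members for calcium minus immature teeth were then 0.04 for Contig[0018], -0.10 for PlateC-D5-5-SMART, 0.00 for PlateD-H2-5-SMART, 0.21 for PlateC-A3-5-SMART and -0.08 for Contig[0192]. For calcium minus iron teeth they lay between -0.78 for Contig[0018] and -0.10 for PlateC-A3-5-SMART, and limma called none. In this comparison of calcium with immature teeth, limma called 0 of 493 sequences and 0 had an unadjusted p under 0.05. Files assigned as in the value table and corrected for background in the same way gave differences of -1.31 for Contig[0018], -0.68 for PlateC-D5-5-SMART, -1.10 for PlateD-H2-5-SMART, -0.86 for PlateC-A3-5-SMART and -0.77 for Contig[0192]. The pattern of the 5 sequences therefore rests on the value table's assignment or on the 12 undisputed arrays.

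**Figure D4:**
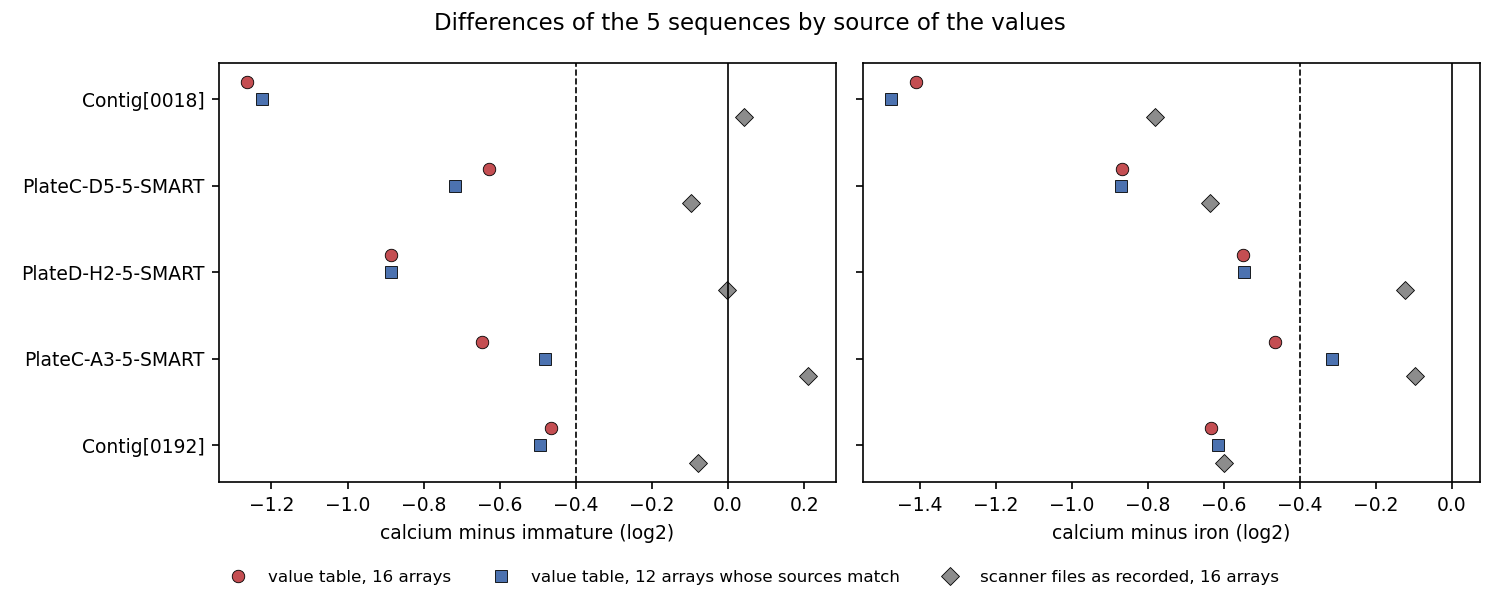
Differences of the 5 sequences for calcium minus immature teeth (left) and calcium minus iron teeth (right), in log2, by source: the value table over 16 arrays, the value table over the 12 arrays whose sources match, and the scanner files as recorded after normexp background correction. The dashed line marks the limit of -0.4; for calcium minus immature teeth the scanner files as recorded lie between -0.10 and 0.21, while the other sources lie at or below -0.46.

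Beyond the pattern, the members shared little that the files show. They were 2 contigs and 3 clones, where the array held 109 contigs and 384 clones. Their median length was 552 bases, against 606 for all sequences. The median share of G and C in their 19 probes was 48.6%, against 42.1% for all probes, ranging by sequence from 35.0% for PlateC-A3-5-SMART to 53.6% for PlateC-D5-5-SMART. No run of 15 bases or more was common to probes of different members. None of their spots reached the scanner maximum.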

How the data were processed

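Cy5-labelled RNA was hybridized to single-colour arrays of 2240 probes on 493 sequences. Groups and replicate numbers follow the sample titles. The authors' deposited value table is a ratio on a linear scale: set against the scanner files, each column is the mean foreground of a probe over the array mean, with no background correction; scale and direction were recovered from the values, and no centring was found (column means 1, medians 0.247 to 0.457). The deposited scanner files hold foreground intensity, per the file headers. The extraction software is not given in the sources used here.

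Log2 ratios were quantile-normalized, averaged per sequence and fitted with limma 3.58.1 in R 4.3.3 (a mean per tissue, 16 arrays, eBayes, two-sided, Benjamini-Hochberg within a comparison). The value table was used first because the membership rule names it. No floor or filter was applied. The fit was tested on simulated data. Members, lists and tests were chosen with earlier results of these data known. The naming rule took the 8 members with the largest difference, the brightest, and those extreme against foot muscle, which came to all 5, with the 3 sequences nearest to each limit on either side. P-values measure the spread between arrays of one tissue, in which pool and hybridization are not told apart. The main fit does not use the replicate number.

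Deviations from tissue means correlated between arrays of one replicate number at 0.237 to 0.772 in every pair of tissues with iron or foot muscle. For immature and calcium teeth the correlation was -0.010 in replicate 2 and 0.328 to 0.588 in the others. Arrays of different numbers were not compared, so whether the numbers pair arrays was not tested. Each tissue's arrays lay in 4 sectors. Alternatives covered scaling, source, probe summary, dim sequences, array weights, blocks, the limits of the rule and each array left out.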

Additional observations from a re-analysis of the deposited data

Results flagged for a closer look

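In 2 of 20 sets of 4 arrays (5 sequences in 4 tissues), 1 array stood apart from the other 3 by Dixon's criterion, which chance alone meets in about 1 of 20 sets. Immature replicate 1 had 3.21 for Contig[0018], against 3.66 to 3.72 in the other 3 immature arrays. Iron replicate 2 had -1.32 for Contig[0192], against -1.20 to -1.18 in the other 3 iron arrays. Both are arrays on which the value table and the scanner files match.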

How the results depend on the processing

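The 10 differences of the members (5 sequences, calcium minus immature and calcium minus iron teeth) were negative in every alternative except the scanner files as recorded (8 of 8 without dim sequences, which leaves out Contig[0192]). Limma called 9 of the 10 under median scaling, where calcium minus iron teeth was lost for PlateC-A3-5-SMART, 9 under 75th percentile scaling and 9 with the median over probes. It called 8 with the table as deposited, where calcium minus immature teeth was -0.31 for Contig[0192], which then did not meet the rule, and 8 on the undisputed arrays. Scanner files as recorded gave 0.0415 for Contig[0018] and 0.21 for PlateC-A3-5-SMART (calcium minus immature, normexp), or 0.0538 and 0.13 with median foreground. They gave 0 members called lower against immature and 0 against iron teeth, as 4 arrays change tissue. Sequences called then numbered 0 for calcium minus immature, 56 and 59 for calcium minus iron and 57 and 58 for iron minus immature teeth. The number meeting the rule was 0 in both, 8 under median scaling, 10 under cyclic loess, 8 with scanner files grouped by the value table (chosen after seeing the data), 2 at a limit of 0.6, 14 when immature and iron could differ by 0.8, and 4 to 9 with 1 array left out, 9 without immature replicate 4 and 8 without iron replicate 3. Without calcium replicate 4, PlateC-A3-5-SMART no longer met it.

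Sequences called, against 189, 166, 149, 213 and 355 in the main setting: under median scaling 111 (calcium minus immature), 87 (calcium minus iron), 61 (calcium minus foot muscle) and 194 (mean of immature and iron minus foot muscle). Under 75th percentile scaling they numbered 125, 107 and 61 for these first 3, and 98 for iron minus immature teeth. Cyclic loess gave 101 and 173 for the foot muscle comparisons, and the table as deposited 102 (calcium minus iron), 96 (iron minus immature), 55 and 121. The median over probes gave 121 for calcium minus foot muscle, and leaving out dim sequences 204 for the mean of immature and iron minus foot muscle. With 1 array left out the counts lay at 176 to 191, 156 to 168, 137 to 154, 160 to 236 and 317 to 359. The share of calls that were lower in calcium than in immature teeth was 36% in the main setting, 53.2% under median scaling and 50.6% under cyclic loess; against iron teeth it was 41.6%, 60.9% and 57.5%. For calcium minus foot muscle it was 70.4%, against 24.6% under median scaling, 36.1% under 75th percentile scaling, 39.6% under cyclic loess and 27.3% as deposited. For the mean of immature and iron minus foot muscle it was 72.4%, against 50.5% under median scaling, 31.8% under cyclic loess and 47.9% as deposited. The median of all sequences shifted most with the table as deposited, to 0.17 for calcium minus immature, 0.14 for calcium minus iron and -0.38 for the mean of immature and iron minus foot muscle, and under 75th percentile scaling, to 0.20 for calcium minus iron, -0.29 for calcium minus foot muscle and -0.40 for the mean of immature and iron minus foot muscle.

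Members called between iron and immature teeth numbered 0 under median scaling, with the table as deposited and with the scanner files as recorded. They numbered 1 under 75th percentile scaling, on the undisputed arrays, without dim sequences and with scanner files grouped by the value table, and 2 to 3 with 1 array left out. With the replicate number as a block, sequences called numbered 216, 203, 185, 305 and 401 and members called lower 5 and 5. The block added the call of PlateC-D5-5-SMART between iron and immature teeth, 3 of 5 in all. Without a background measurement, dim values such as those of Contig[0192] limit what can be seen.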

Other observations

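Other sequences met the rule under some settings only. Over 26 settings of scaling, source, probe summary or arrays, Contig[0018], PlateC-D5-5-SMART and PlateD-H2-5-SMART met it in 24, and PlateC-A3-5-SMART and Contig[0192] in 22. Contig[0002] met it in 8, Contig[0249] in 7, plateD-C7-5SMART-primer in 6, Plate-A-G3-5-SMART in 5 and Contig[0042] in 4. Contig[0002], the one that met it most often, had 2.53 in immature, 3.07 in iron, 0.94 in calcium and 2.59 in foot muscle arrays, so that calcium was the lowest of its tissues as well.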
